A study of Mus musculus with 27 samples.

Results

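The forelimb bud tissue grown from mouse ES cells (ES–FLB) was set against the forelimb bud of the mouse embryo at E10.5 (FLB), with 3 libraries in each group and 6 of the 27 libraries of the series in all. Both groups were chosen by their labels, without reference to any measured value. The ES–FLB cells came from the EB5 ES cell line carrying GFP knocked in at 1 copy of Hand2 (EB5 Hand2::GFP +/-). They were grown as floating aggregates under BMP4 and Matrigel, then all-trans retinoic acid, hydrocortisone, a BMP inhibitor and Wnt3, taken apart with trypsin on day 9 and sorted by flow cytometry for GFP. The E10.5 FLB samples were whole forelimb buds cut from Slc:ICR embryos and were not sorted. Strain, culture, dissociation and sorting therefore all changed together with the group, and their parts in any difference below cannot be told apart. Nothing in the labels states whether the 3 libraries of a group came from separate cultures or litters, so that each p-value measures the spread between these libraries, which may be technical. An earlier forelimb bud group (early FLB, labelled E10.0) and the matching hindlimb groups are given beside some values, without any test between early FLB and the other groups. Parts of the study's text give early FLB another stage than its label, and the label is used here.

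A limb bud is a pocket of mesenchyme from the lateral plate, covered by ectoderm. Its distal rim, the apical ectodermal ridge (AER), secretes FGFs, and a posterior zone secretes Sonic hedgehog. Retinoic acid marks the proximal end, where Meis genes are active, and the 5′ Hox genes of the a and d clusters come on in sequence towards the digits. Blood vessels, blood cells, migrating muscle precursors and nerve-associated cells enter the bud from outside.

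Each ES–FLB library held 7212043 to 7723192 reads and each E10.5 FLB library 5543746 to 5908858, as recovered from the smallest step of the deposited values. Early FLB libraries held 21010420 to 22142313 reads. Scaling divided them by 0.869 to 0.889, against 1.05 to 1.06 in ES–FLB and 1.01 to 1.03 in E10.5 FLB. Of their values 94.4% to 94.7% were whole multiples of a read, against about 99.1% in ES–FLB and 99.2% in E10.5 FLB. Early FLB thus differed from E10.5 FLB in its libraries as well as in stage. The part of that in the early FLB levels below was not tested. Levels are in CPM (reads of a gene relative to a fixed total of 1000000 per library), scaled between libraries, and say nothing of the order of genes within a library, since they were not divided by gene length. A count of 3 reads, the floor used below for a gene listed at 0, was worth 0.368 to 0.395 CPM in ES–FLB and 0.502 to 0.527 CPM in E10.5 FLB. Over genes, the correlation of log2 values was 0.994 within ES–FLB, 0.992 within E10.5 FLB and 0.896 to 0.903 between the groups. All 3 libraries of each group differed from each other beyond counting noise. In bulk RNA, fewer cells of a type and less RNA per cell cannot be told apart.

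Of 13209 genes tested, 6925 (52.4%) were called at an adjusted p below 0.001 in limma's moderated test, 3432 (26.0%) higher and 3493 (26.4%) lower in ES–FLB. Only 2369 (17.9%) of the tested genes were called and over 2-fold apart, 1444 higher and 925 lower. The 26.0% and 26.4% are the background for the list counts below. The libraries of the groups did not overlap for 9749 of the 13209 genes tested and for 6924 of the 6925 called. A lack of overlap was therefore the rule. The median log2 difference (ES–FLB minus E10.5 FLB on the log2(CPM + 0.5) scale) over all genes tested was −0.0061, with quartiles of −0.38 and 0.44, and the median standard error was 0.093. "Rose" and "fell" below are used of called genes in ES–FLB relative to E10.5 FLB. Levels in CPM are means ± SD (n = 3) unless the 3 libraries are given in the order of their replicate numbers, and a rise or fall "by" a value is a log2 difference ± its standard error.

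Among well-expressed genes, the widest rises included an early response factor and genes active in gut, liver or visceral mesoderm, beside others. Egr1, a zinc finger factor switched on within minutes of a stimulus, read 711, 467 and 707 CPM in ES–FLB and 6.89, 2.34 and 2.64 CPM in E10.5 FLB. It was far above the bud in every ES–FLB library, and replicate 2 was the lowest of them (log2 difference 7.26 ± 0.47 SE, limma adjusted p = 0.000179). Without any 1 library other than bud replicate 1, which was the highest bud, the limma adjusted p for Egr1 was 0.00139 to 0.00194 and missed the threshold, and the difference stayed between 7.00 and 7.46. Afp, the fetal albumin of yolk sac and liver, was at 46.6, 43.7 and 52.9 CPM in ES–FLB and listed at 0 in all 3 buds, a level at least 92.6-fold higher. Thy1, a surface protein of mesenchymal cells, neurons and T cells, rose from 0.742 ± 0.35 to 84.1 ± 6.07 CPM (mean ± SD, n = 3). Apob, the lipoprotein of liver and yolk sac, stood at 24.5 to 36.3 CPM against at most 0.351 CPM. Foxf2 (35.5 ± 6.31 CPM), Foxf1a (23.3 ± 2.61 CPM) and Tcf21 (19.2 ± 1.22 CPM) are factors active in visceral mesenchyme. Each was under 0.7 CPM in every bud library. Other E10.5 tissues held them too. In the branchial arch Foxf2 was at 30.6 ± 4.34 CPM and Foxf1a at 18.5 ± 5.06 CPM. The heart held 50.1 ± 5.03 CPM of Tcf21. The other 3 of the 10 were Nepn, a small leucine-rich proteoglycan (29.6 ± 11 CPM, listed at 0 in the buds and at least 57.5-fold higher), the netrin receptor Unc5d (36.8 ± 4.69 CPM against 0.405 ± 0.36) and the kinase anchor Sphkap (21.6 ± 2.41 CPM against 0.114 ± 0.0991).

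**Figure D1:**
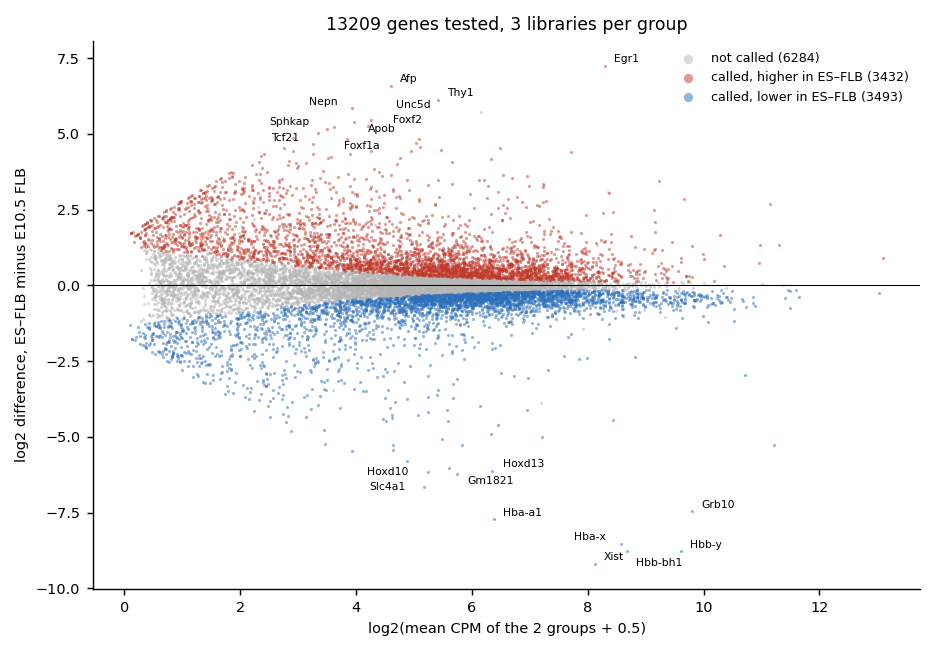
Each point is a gene tested, with the log2 of its mean CPM over both groups on the x axis and the log2 difference, ES–FLB minus E10.5 FLB, on the y axis. Called genes are coloured (3432 higher, 3493 lower), and the names mark the 10 genes furthest up and the 10 furthest down among those that reached 16 CPM in either group.

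The widest falls belonged to X inactivation, red blood cells, an imprinted gene and the 5′ Hoxd genes. Xist, the RNA that coats the inactive X (chrX:103460373-103483233), read 505, 831 and 327 CPM in the buds and 0.123, 0.79 and 0.369 CPM in ES–FLB (log2 difference −9.19 ± 0.48 SE; limma adjusted p = 0.00109 without ES–FLB replicate 3, which misses the threshold). Embryonic globins fell as far: Hbb-y from 1564 ± 338 to 3.02 ± 0.297 CPM, Hbb-bh1 from 818 ± 157 to 1.39 ± 0.464 CPM and Hba-x from 758 ± 112 to 1.65 ± 0.799 CPM. Hba-a1 (165 ± 34.2 to 0.29 ± 0.207 CPM) shares its reads with the near-identical Hba-a2 and is uncertain as a single gene. Slc4a1, the band 3 anion exchanger of red cells, went from 70.8 ± 14.8 to 0.208 ± 0.0657 CPM. Grb10, an imprinted brake on growth factor signalling (chr11:11930499-12037428), was even across the buds at 1768, 1777 and 1801 CPM and stood at 11.8, 6.98 and 10.8 CPM in ES–FLB. Gm1821, a pseudogene that is transcribed, fell from 105 ± 7.92 to 0.942 ± 0.328 CPM and may take reads from its parent gene.

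Genes of chromosome 8 stood apart as a whole. Of its 699 genes tested, 420 (60.1%) were called higher and 56 lower, against 24.1% called higher on the other 19 chromosomes. The median difference on chromosome 8 was 0.49 on the log2 scale, where the other chromosomes ran from −0.082 to 0.043. Each ES–FLB library showed it alone, at 0.48 to 0.50 above the mean of the buds. In the hindlimb comparison the median was 0.48 on chromosome 8 and −0.084 to 0.090 elsewhere, and between early FLB and E10.5 FLB it was 0.093 on chromosome 8. Genes on chromosome 8 are marked so below, since their differences include this shift, whose source was not tested.

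**Figure D2:**
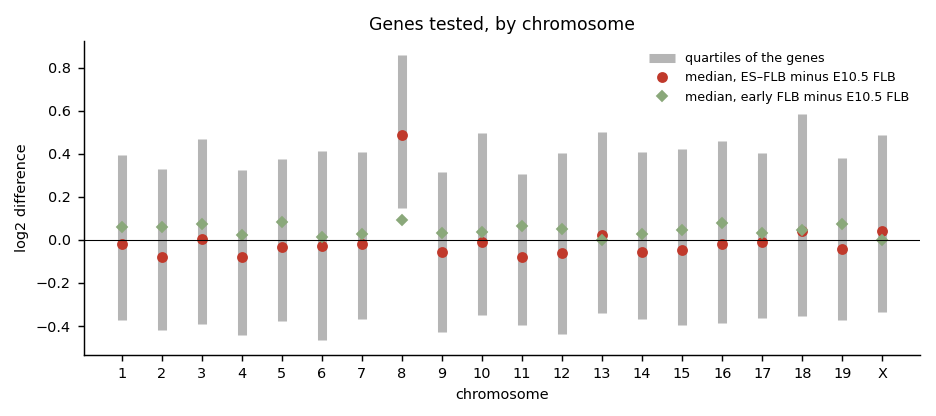
The x axis gives the chromosome and the y axis the log2 difference of its tested genes. Red points are the medians of ES–FLB minus E10.5 FLB, grey bars run between the quartiles of that difference and green diamonds are the medians of early FLB minus E10.5 FLB. The red point of chromosome 8 lies at 0.49 and all others between −0.082 and 0.043.

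The mesenchymal factors of the limb bud were all read in ES–FLB, but at levels unlike those of the bud. Of 27 factors, 8 rose, 15 fell and 4 were not called, with a median log2 difference of −0.56. Tbx5, which starts the forelimb bud (chr5:119796514-119885220), read 72.6, 68.0 and 73.6 CPM in ES–FLB and 155, 165 and 173 CPM in E10.5 FLB. The groups did not overlap, and the fall was 1.20 ± 0.05 on the log2 scale; early FLB stood between them at 99.7 ± 2.35 CPM. Prrx1, a general limb mesenchyme homeobox factor, fell less, from 685 ± 9.25 to 465 ± 8.84 CPM. Hand2, a posterior factor, was at 164, 167 and 143 CPM against 157, 150 and 148 CPM. Its groups overlapped (log2 difference 0.05 ± 0.05 SE, limma adjusted p = 0.367), but ES–FLB was sorted on Hand2::GFP and the gene lies on chromosome 8, so its level says nothing about the unsorted aggregate. The ES–FLB cells also carried the GFP knock-in at Hand2 itself, and its part in the level was not tested.

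The factor that rose furthest was Tbx2, a repressor of the bud margins. Tbx2 read 433, 406 and 421 CPM in ES–FLB against 82.5, 73.9 and 92.4 CPM, above both the E10.5 bud and early FLB (38.2 ± 4.23 CPM). Osr1, a zinc finger factor of mesoderm, went from 28.0 ± 3.21 to 77.0 ± 4.04 CPM and Twist1, a basic helix-loop-helix factor of mesenchyme, from 198 ± 6.55 to 458 ± 14.1 CPM. Other mesenchymal factors rose to a smaller extent: Tbx3 from 75.6 ± 5.15 to 155 ± 6.46 CPM, Alx4 from 96.3 ± 8.29 to 189 ± 10.8 CPM and Snai2 from 33.2 ± 0.22 to 67.0 ± 2.86 CPM. Pdgfra, the receptor that marks mesenchyme, rose from 458 ± 34.4 to 767 ± 53.9 CPM. In the fit over all 27 libraries Prrx1 and Alx4 were no longer called (limma adjusted p = 0.0115 and 0.0685). Fgf10, the mesenchymal signal to the ridge, was at 28.4 ± 3.09 CPM against 32.5 ± 0.97 CPM and was not called.

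The factor that fell furthest was Tbx15, which shapes the limb skeleton. It read 6.86, 9.09 and 9.71 CPM against 284, 291 and 280 CPM (log2 difference −4.99 ± 0.09 SE). Lhx9 and Lhx2, LIM factors that pass the ridge's FGF signal to the mesenchyme, fell from 155 ± 11.6 to 4.81 ± 1.05 CPM and from 77.4 ± 2.6 to 6.70 ± 1.47 CPM. Early FLB held 132 ± 35.2 CPM of Lhx9 and 117 ± 22.8 CPM of Lhx2, so ES–FLB lay far below both stages. Lmx1b, the dorsal selector, was at 0.858, 0.527 and 1.97 CPM against 23.8, 25.1 and 24.4 CPM. Sall3, a zinc finger factor of the distal bud, fell from 44.6 ± 4.75 to 2.25 ± 0.375 CPM. Shox2, needed in the proximal limb, fell from 95.1 ± 4.24 to 10.8 ± 1.55 CPM, and here early FLB was close to ES–FLB at 8.06 ± 2.55 CPM. Tbx18 (132 ± 7.28 to 30.8 ± 3.44 CPM) and Msx1 (105 ± 5 to 42.4 ± 4.87 CPM) fell by less.

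**Figure D3:**
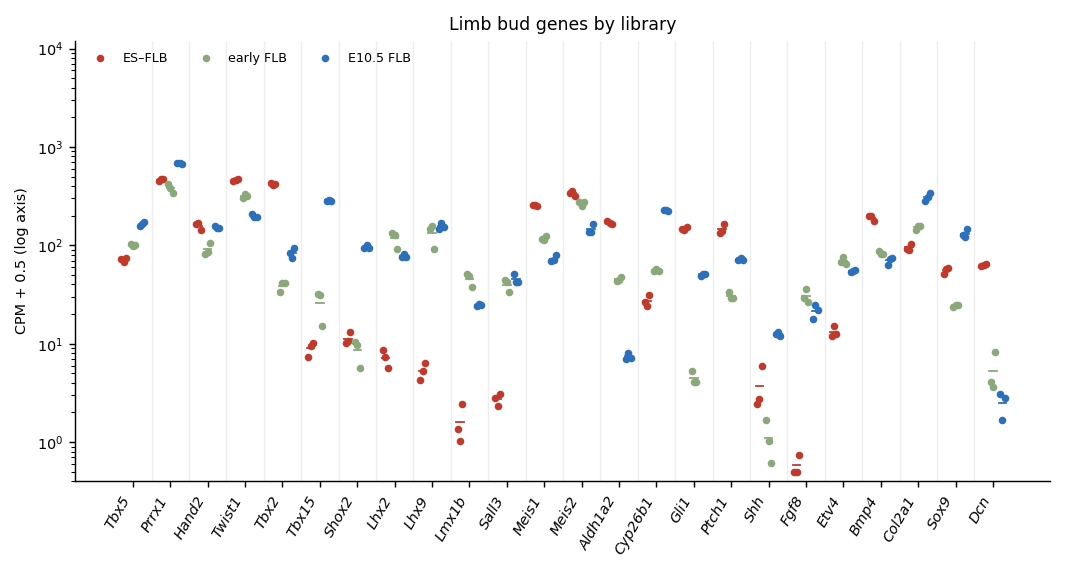
The y axis is CPM + 0.5 on a log axis and the x axis names limb bud genes. Points are the 3 libraries of ES–FLB (red), early FLB (green) and E10.5 FLB (blue) and bars are the group means; Tbx2, Meis1, Aldh1a2 and Gli1 are highest in ES–FLB, while Tbx15, Lhx9, Cyp26b1 and Fgf8 are far below the bud.

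Genes that mark the hindlimb or its field differed as well. Pitx1, the hindlimb homeobox factor, was at 9.07, 6.19 and 7.13 CPM in ES–FLB and 1.03, 0.669 and 0.879 CPM in E10.5 FLB. Isl1, which acts before hindlimb outgrowth and in the heart field, rose from 2.76 ± 0.659 to 23.6 ± 3.24 CPM. Tbx4, the hindlimb counterpart of Tbx5, fell from 12.1 ± 0.239 to 3.03 ± 1.58 CPM, and was no longer called without any 1 bud library (limma adjusted p = 0.00184 to 0.00409). Pitx1 was far higher in both hindlimb groups, at 70.6 ± 4.31 CPM in ES–HLB and 239 ± 5.87 CPM in the E10.5 hindlimb bud, so that the level in ES–FLB lay above the forelimb bud and below both. In early FLB it was at 7.86 ± 3.37 CPM.

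Of 11 proximal genes 5 rose, 3 fell and 3 were not called, with a median of 0.51 (26.0% of all genes tested rose and 26.4% fell). Meis1, a proximal homeobox factor induced by retinoic acid, read 256, 259 and 250 CPM against 69.1, 70.0 and 79.1 CPM (log2 difference 1.81 ± 0.05 SE), with early FLB between them at 117 ± 5.17 CPM. Meis2 went from 146 ± 14.8 to 337 ± 16.8 CPM, Meis3 from 5.79 ± 1.07 to 24.9 ± 1.67 CPM and Irx5 (chromosome 8) from 23.3 ± 2.62 to 49.0 ± 1.24 CPM. The 2 largest falls were in genes of the shoulder girdle, Emx2 (31.7 ± 2.79 to 4.33 ± 1.68 CPM) and Pax1 (44.9 ± 7.47 to 7.26 ± 2.23 CPM). Pbx2, a cofactor of Meis proteins, fell from 273 ± 4.44 to 169 ± 3.32 CPM.

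All 8 Hoxd genes tested fell, with a median of −4.74 on the log2 scale (the genes lie between chr2:74668225 and chr2:74765142). Their summed level was 18.2 to 22.2 CPM in ES–FLB and 503 to 509 CPM in E10.5 FLB. Hoxd13, the last gene of the cluster and a digit gene, read 1.47, 2.11 and 1.84 CPM against 159, 153 and 167 CPM. Hoxd12 read 0.735, 1.05 and 1.23 CPM against 100, 89.9 and 97.5 CPM, Hoxd11 0.49, 0.527 and 0.615 CPM against 62.3, 59.2 and 49.9 CPM and Hoxd10 0.735, 0.263 and 0.737 CPM against 75.1, 78.7 and 69.1 CPM. No ES–FLB library came near the bud for any of the 4. Hoxd9 fell by 3.69 ± 0.12, Hoxd8 by 2.11 ± 0.15, Hoxd4 by 2.35 ± 0.21 and Hoxd3 by 1.48 ± 0.22. Hoxd3 was not called in the fit over all 27 libraries (limma adjusted p = 0.00313). In early FLB the genes from Hoxd11 to Hoxd13 were also low (2.21 ± 0.802, 0.123 ± 0.0807 and 5.78 ± 1.58 CPM), but Hoxd9 and Hoxd10 were at 179 ± 31.8 and 44.4 ± 15.3 CPM, well above ES–FLB.

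The Hoxa cluster was graded, with 4 genes higher, 6 lower and 1 not called. Hoxa2 rose by 2.39 ± 0.11 and Hoxa3, Hoxa4 and Hoxa5 by 0.98 to 1.04, whereas Hoxa9 fell by 1.98 ± 0.10, Hoxa10 by 3.0 ± 0.07, Hoxa11 by 3.25 ± 0.10 and Hoxa13 by 3.67 ± 0.21. In the fit over all 27 libraries Hoxa3, Hoxa4 and Hoxa5 were not called (limma adjusted p = 0.0296, 0.00916 and 0.00195). Hoxa10, for stylopod and zeugopod, read 24.9, 20.8 and 23.5 CPM against 184, 199 and 180 CPM, and early FLB held 22.7 ± 7.22 CPM. Hoxb genes, which act early and along the trunk, rose in 5 of 8 tested and fell in none (median 1.64). Hoxb4 went from 7.04 ± 0.431 to 43.5 ± 0.597 CPM and Hoxb5, which positions the forelimb, from 5.50 ± 1.02 to 33.3 ± 2.18 CPM. Early FLB was close to ES–FLB for Hoxb4 (36.1 ± 3.31 CPM) and Hoxb5 (34.4 ± 1.09 CPM), but held 64.5 ± 5.54 CPM of Hoxb9 where ES–FLB held 5.17 ± 0.618 and E10.5 FLB 2.98 ± 0.464 CPM. Of 7 Hoxc genes tested 5 rose and 1 fell, but in the fit over all 27 libraries 2 rose. Hoxc9 and Hoxc10, which belong to flank and hindlimb levels, rose to 4.46 ± 0.574 and 5.52 ± 0.218 CPM from 0.858 ± 0.297 and 1.49 ± 0.276 CPM, and Hoxc13 was listed at 0 in ES–FLB and at 2.98 ± 0.206 CPM in the buds, at least 7.89-fold lower.

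**Figure D4:**
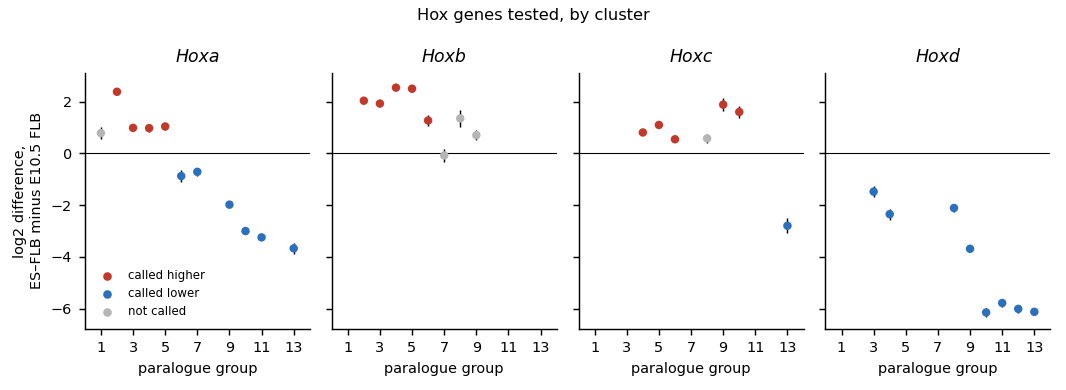
The 4 panels show the Hox clusters, with the paralogue group on the x axis and the log2 difference, ES–FLB minus E10.5 FLB, on the y axis; bars are standard errors and colours mark called genes. Hoxa falls from 2.39 at Hoxa2 to −3.67 at Hoxa13, all tested Hoxd genes lie below 0 and Hoxd10 to Hoxd13 lie near −6.

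Retinoic acid genes were split between synthesis and breakdown, with 6 of 13 higher, 7 lower and a median of −0.69. Aldh1a2, the enzyme that makes retinoic acid in the flank, read 177, 169 and 166 CPM in ES–FLB and 6.54, 7.52 and 6.68 CPM in E10.5 FLB (log2 difference 4.53 ± 0.08 SE). Aldh1a3, a second such enzyme, rose from 0.403 ± 0.272 to 17.7 ± 4.31 CPM and Rdh10, which makes their substrate, from 15.7 ± 2.63 to 79.3 ± 7.26 CPM. Cyp26b1, which breaks retinoic acid down in the distal bud, read 26.0, 23.8 and 30.5 CPM against 227, 226 and 220 CPM. The binding protein Crabp2 fell from 425 ± 9.1 to 79.9 ± 5.28 CPM and the receptors Rarb and Rarg by 1.34 ± 0.12 and 1.05 ± 0.05. All-trans retinoic acid had been added to the culture for a time. Per the study's methods it was taken out again well before the cells were collected on day 9.

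Hedgehog target genes were higher in ES–FLB and the ligand was lower. Of 14 genes of the pathway 8 rose and 5 fell (median 0.39); in the fit over all 27 libraries 5 rose. Shh, the ligand of the posterior zone, read 1.96, 2.24 and 5.41 CPM against 12.1, 12.5 and 11.6 CPM. Gli1, a transcription factor and direct target, read 145, 144 and 153 CPM against 48.4, 51.0 and 51.1 CPM, a rise of 1.54 ± 0.06, and stood at 3.98 ± 0.724 CPM in early FLB. Ptch1, the receptor and also a target, rose from 71.5 ± 2.09 to 147 ± 16.4 CPM, and Hhip (chromosome 8), a membrane antagonist and target, from 6.41 ± 0.442 to 28.1 ± 4.23 CPM. Gli3, the main repressor of the anterior bud, fell from 230 ± 7.06 to 131 ± 4.15 CPM, and the signal transducer Smo fell by 0.36 ± 0.04.

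FGF genes were mostly lower, with 3 of 18 tested higher, 12 lower and a median of −0.93. Fgf8, the ligand of the ridge, was listed at 0 in 2 ES–FLB libraries and at 0.246 CPM in the other, against 17.2, 24.1 and 21.6 CPM in the buds. Fgf9, also of the ectoderm, fell from 6.32 ± 1.71 to 1.23 ± 0.564 CPM; Fgf4, a second ridge ligand, was under 2 CPM in every library and was not tested. Genes that FGF signals switch on in the mesenchyme fell together: Etv4 read 11.5, 14.5 and 11.9 CPM against 53.4, 54.2 and 56.2 CPM, Etv5 fell from 127 ± 2.46 to 33.8 ± 2.31 CPM, Il17rd from 200 ± 8.58 to 81.7 ± 3.54 CPM, Spry1 from 42.0 ± 0.998 to 19.6 ± 0.362 CPM and the phosphatase Dusp6 from 225 ± 9.59 to 120 ± 1.58 CPM. The receptors Fgfr1 (chromosome 8) and Fgfr2 rose by 0.53 ± 0.04 and 0.32 ± 0.05, and Etv1 rose from 14.5 ± 2.15 to 28.6 ± 2.22 CPM. Fgfr2 was not called in the fit over all 27 libraries (limma adjusted p = 0.0072).

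BMP genes were mostly higher, with 16 of 25 higher, 3 lower and a median of 0.43. Bmp4, the ligand of mesenchyme and ridge, read 199, 196 and 176 CPM against 62.7, 72.4 and 73.8 CPM, and Bmp5 rose from 8.31 ± 0.902 to 23.8 ± 0.659 CPM, while Bmp7 fell from 59.5 ± 2.64 to 23.1 ± 0.683 CPM. Secreted antagonists were higher: Nog at 6.35 ± 0.574 CPM against 0.808 ± 0.608, Chrd at 11 ± 0.979 against 3.10 ± 0.366 and Fst at 12.4 ± 2.74 against 2.91 ± 0.27 CPM. Grem1, the antagonist that links Shh to the ridge, did not pass the test (26.0 ± 2.75 against 26.3 ± 4.32 CPM). Of the target genes, Id2 rose by 1.03 ± 0.04, Id3 by 0.35 ± 0.04 and Id1 by 0.26 ± 0.05. Id1 was not called in the fit over all 27 libraries (limma adjusted p = 0.00597). Gdf5, the joint ligand, fell from 5.16 ± 0.743 to 0.289 ± 0.183 CPM. A BMP ligand and a BMP inhibitor had both been used in the culture. Per the study's methods each was given for a time that ended well before day 9.

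Wnt genes went both ways, with 12 of 32 tested higher, 12 lower and a median of −0.05. Ligands of the limb ectoderm fell: Wnt7a, the dorsal ectoderm signal, was at 0.123, 0 and 0.246 CPM against 8.09, 7.02 and 8.26 CPM, Wnt6 at 2.48 ± 1.12 against 31.3 ± 1.31 CPM and Wnt3 at 0.509 ± 0.244 against 11.8 ± 0.955 CPM. Wnt5a, the mesenchymal ligand that orients distal growth, fell from 177 ± 3.87 to 125 ± 7.93 CPM. Feedback targets of the β-catenin branch rose, Axin2 from 98.0 ± 3.26 to 158 ± 9.7 CPM, Notum from 11.4 ± 1.33 to 23.1 ± 0.884 CPM and Nkd1 (chromosome 8) from 61.9 ± 0.899 to 142 ± 11.2 CPM. The factor Tcf7 and the feedback gene Nkd2 fell by 1.75 ± 0.10 and 1.29 ± 0.07. Secreted inhibitors and enhancers included Dkk2 (12.8 ± 1.52 to 58.6 ± 1.97 CPM), Rspo1 (10.7 ± 1.88 to 38.0 ± 2.47 CPM), Rspo2 (16.8 ± 2.5 to 43.7 ± 3.06 CPM) and, in the other direction, Rspo4 (34.6 ± 1.96 to 6.89 ± 0.948 CPM). In the fit over all 27 libraries Axin2 and Rspo2 were not called (limma adjusted p = 0.00253 and 0.00276).

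Genes of vessels, blood cells and migrating muscle precursors were low in the sorted ES–FLB cells. A gene was tested on reaching 1 CPM in 3 of the 6 libraries. Those near 0 in ES–FLB therefore entered only through the buds, which fixed their direction. Listed at 0 in ES–FLB were 5 macrophage, 3 erythroid and 3 muscle precursor genes. With a filter at 5 CPM, 12 erythroid, 3 macrophage and 5 muscle precursor genes were tested, and all fell. All 19 endothelial genes tested fell (median −3.12), with a sum of 64.7 to 69.4 CPM against 565 to 574 CPM. Pecam1, an adhesion molecule of vessels, read 3.80, 4.08 and 2.83 CPM against 54.3, 55.3 and 53.3 CPM, the VEGF receptor Kdr fell from 67.0 ± 2.37 to 8.13 ± 0.944 CPM, and Plvap (chromosome 8) from 43.3 ± 1.55 to 1.54 ± 0.796 CPM. Erythroid genes fell in 15 of 16 (median −3.89), from a sum of 2986 to 4278 CPM to 13.6 to 14.6 CPM. Macrophage genes fell in 10 of 11 tested (median −2.44), with C1qa listed at 0 in ES–FLB (at least 5.01-fold lower) and Csf1r, their growth factor receptor, at 0.129 ± 0.132 against 5.73 ± 0.681 CPM. All 6 muscle precursor genes tested fell (median −3.63), among them Pax3, which marks the migrating cells, from 17.2 ± 1.37 to 0.587 ± 0.312 CPM and Lbx1 from 6.47 ± 1.15 to 2.05 ± 0.193 CPM.

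Surface ectoderm and ridge genes were lower without being absent. Of 23 genes 15 fell, 2 rose and 6 were not called (median −0.99), and the sum was 260.5 to 338 CPM against 539 to 553 CPM. Trp63, the master factor of stratified ectoderm, read 2.57, 2.63 and 5.78 CPM against 42.5, 40.6 and 43.9 CPM, and the ridge factor Sp6 fell from 16.2 ± 0.813 to 2.74 ± 0.907 CPM. The epithelial adhesion molecule Epcam fell less, from 38.9 ± 3.36 to 16.6 ± 3.21 CPM, and Cdh1 (E-cadherin, chromosome 8) was at 24.8, 21.5 and 35.8 CPM against 40.6, 45.8 and 41.8 CPM and was not called (limma adjusted p = 0.00582), though it was without ES–FLB replicate 3 (log2 difference −0.88, limma adjusted p = 1.04e-08). Dsc3, a desmosomal cadherin, went the other way, from 1.79 ± 0.972 to 26.4 ± 1.91 CPM. Neural crest, glial and neuronal genes did not follow those of the other cells that enter the bud: 5 of 9 tested rose and 2 fell (median 0.64), with a sum of 68.0 to 75.2 CPM against 43.8 to 51.3 CPM. Without bud replicate 2, or without ES–FLB replicate 3, 3 rose. Stmn2, a neuronal tubulin regulator, rose from 2.52 ± 0.236 to 17.0 ± 2.05 CPM and Erbb3, a Schwann cell precursor receptor, fell from 13.9 ± 2.54 to 3.24 ± 1.1 CPM.

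Markers of pluripotent cells and endoderm mostly rose in ES–FLB, and those of heart and other mesoderm went both ways. Of 10 pluripotency genes tested 9 rose and none fell (median 2.60, or 2.48 with the gene listed at 0 in the buds set to its bound). Pou5f1, Nanog and Sox2, the core factors of ES cells, stood at 4.15 ± 1.36, 2.54 ± 0.788 and 8.97 ± 2.02 CPM against 0.116 ± 0.1, 0.0574 ± 0.0994 and 0.568 ± 0.246 CPM. Klf4, which is also active in stromal cells, was at 95.5, 100 and 89.0 CPM against 6.54, 4.18 and 4.92 CPM and made up most of the list's sum. Of 11 endoderm genes tested 9 rose (median 3.0, or 2.77 with 6 genes at their bound), led by Afp and Apob; Foxa2, a gut and floor plate factor, was at 3.51 ± 0.327 CPM and listed at 0 in the buds (at least 6.81-fold higher). Shh is also on that list and is the member that fell. The remaining member tested was not called. Genes near 0 in the buds passed the filter of 1 CPM in 3 libraries only through ES–FLB, which fixed their direction. Of the 13 genes on the endoderm list, 7 were listed at 0 in the buds. With a filter at 5 CPM, 5 endoderm genes were tested, of which 4 rose and 1 fell. Only 2 pluripotency genes were tested at that filter, and 2 rose. Of 17 genes of heart and other mesoderm 9 rose and 4 fell (median 1.42), and without bud replicate 3 the number that fell was 2. With the filter at 5 CPM, 8 of them were tested, of which 4 rose and 3 fell (median 0.40). The cardiac and gut mesoderm factors Gata4 and Gata6 rose from 2.41 ± 0.351 to 32.6 ± 4.55 CPM and from 6.60 ± 1.23 to 77.5 ± 7.82 CPM, and early FLB held 24.0 ± 10.8 and 51.0 ± 10.1 CPM. Nkx2-5, a heart muscle factor, was under 1 CPM in every library. The somite factors Tcf15 and Meox2 fell from 9.61 ± 0.574 to 0.585 ± 0.251 CPM and from 82.4 ± 7.77 to 17.4 ± 2.54 CPM.

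**Figure D5:**
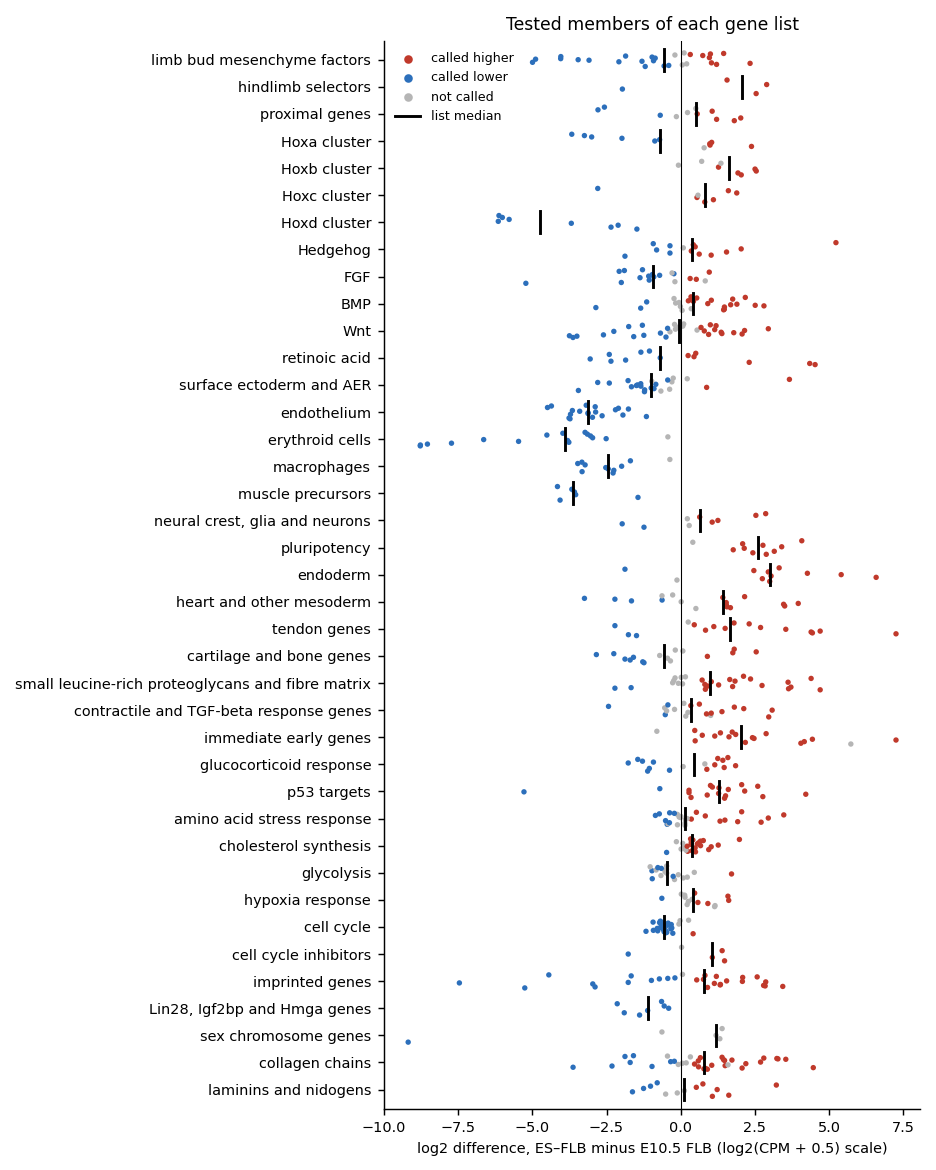
Rows are the gene lists and the x axis is the log2 difference, ES–FLB minus E10.5 FLB. Points are the tested members, coloured where called, and black bars are list medians, the lowest of which are those of Hoxd (−4.74) and erythroid genes (−3.89) and the highest that of endoderm genes (3.0).

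Genes of connective tissue matrix mostly rose in ES–FLB. Of 16 tendon genes tested 12 rose (median 1.65), but the tendon factors themselves, Scx and Mkx, fell from 43.3 ± 3.59 to 15.2 ± 2.21 CPM and from 13.2 ± 2.07 to 3.57 ± 0.868 CPM. With 1 library left out, the number of tendon genes that rose was 8 to 11. The small leucine-rich proteoglycans and fibre proteins rose in 17 of 26 tested and fell in 2 (median 0.97). Dcn, a collagen-binding proteoglycan, read 61.4, 63.2 and 63.4 CPM against 2.58, 1.17 and 2.28 CPM, Postn, a matrix protein of fibrous tissue, 245, 212 and 229 CPM against 17.7, 17.2 and 19.5 CPM, and Tnc, a tendon and wound matrix protein, 395, 393 and 410 CPM against 17.9, 12.2 and 28.8 CPM. Lum, a proteoglycan of connective tissue, was at 172 ± 14.8 against 13.9 ± 5.39 CPM. The groups overlapped for none of these genes, as for 6924 of the 6925 genes called in all. Tnc and Lum varied between the buds, where replicate 3 was the highest, and with 1 library fewer most fits no longer called them (limma adjusted p = 0.00304 to 0.00333 for Tnc without bud replicate 1 or any 1 ES–FLB library, and 0.00111 to 0.00361 for Lum without bud replicate 1 or 2 or any 1 ES–FLB library). Fmod fell from 4.19 ± 0.947 to 0.50 ± 0.109 CPM.

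Collagen chains rose in 21 of 35 tested and fell in 8 (median 0.78), with a sum of 8613 to 9263 CPM against 3741 to 3935 CPM. The 3 chains of collagen VI rose together: Col6a1 from 15.8 ± 1.96 to 189 ± 9.84 CPM, Col6a2 from 23.2 ± 2.89 to 229 ± 17.5 CPM and Col6a3 from 28.5 ± 6.33 to 269 ± 9.62 CPM. Col14a1, of tendon and dermis fibrils, rose from 3.33 ± 0.437 to 83.9 ± 2.96 CPM. Basement membrane chains fell, Col15a1 from 77.2 ± 4.61 to 5.79 ± 0.47 CPM and Col18a1 from 319 ± 17.5 to 63.7 ± 4 CPM, and so did the cartilage chains Col2a1 (91.8, 89.9 and 102 CPM against 280, 311 and 338 CPM) and Col9a1 (107 ± 3.29 to 28.8 ± 2.31 CPM). Sox9 and Sox5, which switch cartilage genes on, fell from 131 ± 12.1 to 55.3 ± 4.54 CPM and from 37.9 ± 0.91 to 15.4 ± 2.03 CPM, and Runx2, the bone factor, rose from 19 ± 3.51 to 64.7 ± 2.62 CPM (not called in the fit over all 27 libraries, limma adjusted p = 0.00692); in early FLB Sox9 was at 24.0 ± 0.792 CPM and Runx2 at 2.31 ± 0.786 CPM. Over all 16 cartilage and bone genes tested 4 rose and 7 fell (median −0.58), where 26.0% of all genes tested rose and 26.4% fell. Among laminins and nidogens 6 of 13 rose and 4 fell (median 0.13), with Lama2, the muscle and mesenchyme chain, up from 11.8 ± 1.39 to 37.2 ± 0.438 CPM and Lama5, the ectodermal chain, down from 71.7 ± 2.86 to 23.0 ± 2.68 CPM. Contractile and TGF-β response genes rose in 9 of 19 tested and fell in 3 (median 0.34): Acta2, smooth muscle actin, rose from 5.56 ± 0.398 to 47.0 ± 5.3 CPM and the TGF-β-induced Tgfbi from 48.8 ± 2.36 to 215 ± 11.8 CPM.

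Immediate early genes, whose transcripts climb within minutes of a stimulus, rose in 16 of 18 and fell in none (median 2.02). Their sum was 1886 to 2531 CPM in ES–FLB and 422 to 464 CPM in E10.5 FLB. Jun, a subunit of AP-1, read 267, 241 and 286 CPM against 57.4, 55.5 and 61.2 CPM, Junb (chromosome 8) 162, 118 and 173 CPM against 9.99, 6.69 and 7.21 CPM and Zfp36, which destabilizes cytokine mRNA, 49.9, 38.9 and 53.7 CPM against 4.99, 6.52 and 6.50 CPM. ES–FLB replicate 2 was the lowest ES–FLB library for all 3 and for Egr1, and still lay above every bud library. Fos was at 150, 101 and 165 CPM against 8.78, 1.00 and 0.703 CPM and was not called (limma adjusted p = 0.00541), with no overlap between the groups and bud replicate 1 above the other buds; without that library it was called (limma adjusted p = 1.07e-10). Only the ES–FLB cells had been through trypsin and sorting, and the part of those steps was not tested.

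The promoters of these genes, taken from RefSeq for 14 of the 18 genes (20 start sites), were searched on both strands for the CArG box, the site of serum response factor. It was found at 5 of the 20 (25%), of which 4 are overlapping starts of Egr2, and at 1.63% of all 32851 promoters of the table. Egr2, a relative of Egr1 named here for its promoter after its values were seen, rose from 0.170 ± 0.167 to 13.9 ± 3.1 CPM. Both promoters follow, 5′ to 3′ on the gene's strand with the CArG box in capitals, from 120 bases before the start to the base before it (GRCm38; Egr2 at chr10:67537446-67537565 on the plus strand, Zfp36 at chr7:28379229-28379348 on the minus strand).
Egr2: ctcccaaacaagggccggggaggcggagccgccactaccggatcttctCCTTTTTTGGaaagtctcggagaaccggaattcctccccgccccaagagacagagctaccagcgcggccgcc
Zfp36: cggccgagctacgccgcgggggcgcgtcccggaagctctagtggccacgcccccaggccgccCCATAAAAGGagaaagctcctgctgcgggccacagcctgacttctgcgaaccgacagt
The box begins 72 bases before the start in Egr2 and 58 bases before it in Zfp36. A match of letters is not evidence of binding.

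Targets of p53, the factor that answers DNA damage and other stress, rose in 16 of 18 tested and fell in 2 (median 1.28). Ccng1 read 192, 200 and 219 CPM against 26.0, 30.4 and 32.2 CPM, and Eda2r, a death receptor, 48.0, 52.0 and 53 CPM against 2.07, 2.67 and 2.11 CPM. The cell cycle inhibitor Cdkn1a rose from 16.9 ± 1.65 to 47.8 ± 4.52 CPM, the RNA-binding Zmat3 from 33.3 ± 1.73 to 150 ± 8.17 CPM and Mdm2, which degrades p53, from 62.4 ± 4.73 to 79.6 ± 4.11 CPM. Pmaip1 (Noxa) went strongly the other way, at 1.59, 3.16 and 2.46 CPM against 123, 99.6 and 108 CPM, and early FLB held 3.28 ± 1.52 CPM. Cell cycle genes fell in 25 of 29 and rose in 1 (median −0.55). The falls were small, such as 0.27 ± 0.03 for Top2a and 0.50 ± 0.04 for Ccnb1, and reached 1.17 ± 0.06 for Ccne1, while Mki67, the member that rose, went from 524 ± 6.64 to 701 ± 22 CPM. The inhibitor Cdkn1b rose from 34.4 ± 2.82 to 72.5 ± 3.45 CPM, and the imprinted Cdkn1c fell from 509 ± 19.1 to 149 ± 6.89 CPM.

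Glucocorticoid response genes went both ways (7 of 16 higher, 7 lower, median 0.45). Hydrocortisone had been in the ES–FLB medium. Fkbp5, a classical target, was lower at 57.2, 55.2 and 51.7 CPM against 122, 117 and 119 CPM, whereas Per1 and Sgk1 rose by 0.88 ± 0.09 and 1.47 ± 0.11 and Mt1 (chromosome 8), a metallothionein, by 1.85 ± 0.11. The receptor gene Nr3c1 rose from 7.96 ± 0.867 to 24.9 ± 1.74 CPM.

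Genes of the amino acid stress response did not move as a group, with 10 of 27 tested higher, 7 lower and a median of 0.15. Over all genes tested 26.0% were higher and 26.4% lower. Atf4, the factor that runs the response, fell from 185 ± 9.32 to 130 ± 7.74 CPM and Phgdh, of serine synthesis, from 186 ± 4.35 to 135 ± 5.92 CPM. Asns, the asparagine synthetase, was not called. Sesn2, also a p53 target, rose from 14.2 ± 0.752 to 60.5 ± 2.87 CPM and Vldlr, a lipoprotein receptor, from 4.49 ± 1.4 to 53.6 ± 6.71 CPM. The element TGATGNAA, to which C/EBP and ATF4 dimers bind, was found on either strand at 10 of 26 promoters of this list (38.5%; 22 of 28 genes had a RefSeq promoter) and at 3.97% of all promoters of the table. Chac1, which degrades glutathione, and Trib3, a pseudokinase that restrains ATF4, are shown because their promoters held it and were chosen after their values were seen. Chac1 read 9.07, 5.66 and 7.87 CPM against 0.344, 0.502 and 1.58 CPM and Trib3 6.25, 5.00 and 6.64 CPM against 1.38, 1.00 and 1.23 CPM, with no overlap. The windows are 120 bases from 250 before the start of Chac1 (chr2:119350992-119351111, plus strand) and 30 bases just after that of Trib3 (chr2:152344028-152344057, minus strand), with the element in capitals; in both it lies on the opposite strand.
Chac1: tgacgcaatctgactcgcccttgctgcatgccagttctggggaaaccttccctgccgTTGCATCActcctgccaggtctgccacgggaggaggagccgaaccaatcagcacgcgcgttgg
Trib3: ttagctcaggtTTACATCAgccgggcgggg
Asns also held the element and was not called.

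Imprinted genes, which are read from the copy of 1 parent, showed some of the largest differences. Of 28 tested 16 rose, 11 fell and 1 was not called (median 0.79). Igf2, the paternally read fetal growth factor (chr7:142650768-142666816), was at 132, 113 and 118 CPM in ES–FLB and 4664, 4595 and 4649 CPM in the buds, a fall of 5.26 ± 0.05. H19, its maternally read neighbour (chr7:142575530-142578146), was at 11665, 11314 and 11230 CPM against 6093, 6204 and 5971 CPM. In the Dlk1 domain of chromosome 12 the paternally read Dlk1 fell from 160 ± 11.6 to 21.2 ± 1.45 CPM, and the maternally read Meg3 (102 ± 20.6 to 1104 ± 166 CPM), Rian (198 ± 16.2 to 1423 ± 79.2 CPM) and Mirg (8.2 ± 2.09 to 58.8 ± 4.91 CPM) rose. Meg3 missed the threshold without bud replicate 2 or ES–FLB replicate 2 or 3 (limma adjusted p = 0.00109 to 0.00152). On chromosome 6 Asb4 fell from 663 ± 19.2 to 30.0 ± 2.4 CPM and the paternally read Mest from 2972 ± 100 to 381 ± 26.7 CPM. Kcnq1ot1, which overlaps Kcnq1 on the other strand so that their reads cannot be told apart here, rose from 7.80 ± 1.94 to 59.4 ± 8.82 CPM. Early FLB resembled the E10.5 bud and not ES–FLB for Igf2 (3721 ± 72.4 CPM), H19 (6124 ± 302 CPM), Mest (4080 ± 184 CPM) and Grb10 (1664 ± 46.5 CPM).

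All 7 genes of the Lin28, Igf2bp and Hmga families, RNA and chromatin proteins of early embryos, fell (median −1.11). Lin28b went from 64.9 ± 6.46 to 17.0 ± 1.55 CPM and Hmga1 from 91.7 ± 9.77 to 20.5 ± 2.65 CPM. Early FLB held 333 ± 11.5 and 224 ± 29.4 CPM, so that both genes ran in the order early FLB, E10.5 FLB and ES–FLB. The early FLB libraries also differed in their number of reads, and the part of this in the order was not tested.

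Of 5 sex chromosome genes tested Xist fell and the other 4, all Y-linked, were not called. Xist was under 1 CPM in all ES–FLB libraries while Ddx3y, a Y-linked helicase, was at 62.1, 78.5 and 74.4 CPM (limma adjusted p = 0.0774). The bud libraries held both RNAs and in opposite order, since replicate 2 had the most Xist (831 CPM) and the least Ddx3y (14.5 CPM) and replicate 3 the least Xist (327 CPM) and the most Ddx3y (49.7 CPM). Sex therefore cannot be told apart from the group.

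The same comparison in the hindlimb (ES–HLB against the E10.5 hindlimb bud, 3 libraries each) was set beside that of the forelimb. Per the study's methods, ES–FLB was given all-trans retinoic acid, and ES–HLB was given a retinoic acid antagonist instead. Limb type and retinoic acid treatment therefore changed together, and their parts cannot be told apart. The forelimb difference minus the hindlimb difference was called for 954 (6.98%) of 13665 genes, 344 of them higher in the forelimb comparison. With CPM as deposited the count was 138, of which 28 were higher. In 1 of the E10.5 hindlimb libraries the values of several whole chromosomes and part of another were 0 and were treated as missing. Genes there rest on 2 libraries. Scaling divided that library by 1.51, against 0.963 and 0.977 for the other E10.5 hindlimb libraries, and CPM as deposited left it unscaled. For Tbx5 (2 hindlimb bud libraries) the forelimb difference of −1.20 stood against 2.40 in the hindlimb. For Pitx1 a forelimb difference of 2.54 stood against −1.75, for Hoxc10 1.61 against −2.39, and for Aldh1a2 4.53 against 0.63. Tbx15 fell by 4.99 in the forelimb and by 0.91 in the hindlimb comparison. Twist1 (1.21 and 1.20), Lhx9 (−4.89 and −4.98), Egr1 (7.26 and 7.17) and Gm1821 (−6.21 and −6.45) differed by no more than 0.24 on the log2 scale between the comparisons.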

How the data were processed

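RNA-seq libraries (TruSeq Stranded mRNA, single-end) were made from sorted ES–FLB cells and from dissected limb buds. Per the study's methods and the submitters' processing notes, reads were checked in FastQC 0.11.5, aligned to mm10 with HISAT2 2.0.4, counted per gene with Cuffdiff (Cufflinks 2.1.1 in the notes, another version in the methods) and passed to edgeR 3.16.2; whether counting used strand is not given in the sources used here. The table deposited by the authors holds CPM (counts scaled so that each library sums to 1000000) for 23279 genes in 27 libraries. About 99% of its values in the groups compared were whole multiples of 1 read within 0.1.

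From these values, libraries were scaled by an unweighted trimmed mean of log ratios (30% of ratios and 5% of intensities trimmed). Genes reaching 1 CPM in 3 or more libraries of the 6 compared were tested with limma 3.58.1 (R 4.3.3; trend and robust) on log2(CPM + 0.5), which understates changes of low genes. The adjusted p is Benjamini-Hochberg over all genes tested, called below 0.001. The forelimb minus hindlimb difference was an interaction over 12 libraries. In the E10.5 hindlimb library replicate 2, 8505 values were set to missing. Most rules followed position: chromosomes read as 0 almost throughout, and the part of another past a breakpoint. Zeros elsewhere were also set to missing if the gene was read in the other hindlimb bud libraries or had no known position. That last step removed zeros by their value, which may raise the hindlimb bud level of those genes. Fits were tested on simulated data. A gene listed at 0 in a group was set against 3 reads per library for its bound; intervals and floors cover counting error only.

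Groups followed the labels. The members and gene lists were chosen with earlier results of these data known. Named genes were the 10 called genes furthest up and the 10 furthest down among those that reached 16 CPM in a group without overlap; any member of the limb factor, Hox and signalling lists; in each other list the first 3 members, up to 4 called members furthest each way at that level and members called against the majority; and the 5 largest differences each way between the forelimb and hindlimb comparisons. Exceptions are marked in the text. Some members of the lists are not reported here. Promoters came from the RefSeq table (GRCm38.p6; 250 bases before to 50 after each start). Settings varied were scaling, pseudocount, filter, fit and each library left out.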

Additional observations from a re-analysis of the deposited data

Results flagged for a closer look

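Of the genes with at least 16 CPM in a group, the 5 with the largest positive and the 5 with the largest negative difference between the forelimb and the hindlimb comparison were taken up, each with a limma adjusted p of its own for the forelimb minus hindlimb difference. Pitx1, the hindlimb selector, differed by 4.29 on the log2 scale, being higher in ES–FLB than in the forelimb bud and lower in ES–HLB than in the hindlimb bud (7.46 against 0.86 CPM, and 70.6 against 239 CPM). Hoxc10 differed by 4.0 and Hoxc9 by 3.16 in the same way (Hoxc10 at 5.52 against 1.49 CPM, and 25.6 against 136 CPM). Aldh1a2, the retinoic acid enzyme, differed by 3.90, with 171 against 6.92 CPM in the forelimb and 31.2 against 20.4 CPM in the hindlimb. Rxfp2, a relaxin family receptor, differed by 3.56, with 30.8 against 4.53 CPM and 1.10 against 2.45 CPM.

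In the other direction Gria2, a glutamate receptor subunit, differed by −4.91, since it was at 13.9 against 16.3 CPM in the forelimb and at 31.6 against 0.784 CPM in the hindlimb. The embryonic globins Hbb-bh1 and Hba-x differed by −4.78 and −4.22, with 48.7 and 37.7 CPM in ES–HLB where ES–FLB held 1.39 and 1.65 CPM. Fmod, a proteoglycan of tendon, differed by −4.47, with 0.50 against 4.19 CPM in the forelimb and 23.4 against 4.52 CPM in the hindlimb. Tbx15 differed by −4.08, with 8.55 against 285 CPM in the forelimb and 113 against 214 CPM in the hindlimb. The limma adjusted p was 0.000262 for Hbb-bh1 and 0.000487 for Hba-x and at most 3.05e-11 for the other 8. Aldh1a2, Rxfp2 and Hbb-bh1 rest on 2 E10.5 hindlimb libraries. Strain, culture and sorting changed with the ES groups in both comparisons, and their part was not tested. ES–FLB and ES–HLB also differed in retinoic acid treatment, so limb type cannot be told apart from it.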

How the results depend on the processing

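With 3 libraries per group and 5543746 to 7723192 reads each, genes near the floor of 3 reads could not be separated from 0. The 6925 calls between ES–FLB and E10.5 FLB stayed between 6166 and 6985 with CPM as deposited, median-of-ratios scaling, a pseudocount of 0.1 or 1, no filter, a filter at 5 CPM or a spread shared by all 27 libraries. They were 6142 to 6521 without 1 library, of which at least 6071 were also called with all 6, and none changed direction in any of these fits. Without the trend and robust steps the count was 3827, and the number of members called one way fell by over 1.5 times in several lists, among them Hedgehog, BMP, retinoic acid and cholesterol synthesis. Leaving out the genes of chromosome 8, a choice made after seeing the data, left 6449 calls (3012 higher, 3437 lower). The share of calls that were higher was 55.1% with CPM as deposited, which moved the median of all genes to 0.047, and 49.6% with the scaling reported. Only the Wnt list's median changed sign, to 0.0020 with CPM as deposited. Of 201 genes named and called, 29 lost the call in at least 1 fit and 0 changed direction. Among those not called, Grem1 changed sign with CPM as deposited (0.041), with median-of-ratios scaling (0.0024) and without 1 library (−0.0938 to 0.12).

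The 954 calls of the difference between the forelimb and the hindlimb comparison fell to 138 with CPM as deposited. They stayed between 770 and 998 with a pseudocount of 1 or without 1 library. CPM as deposited left unscaled the E10.5 hindlimb library with missing chromosomes, which scaling divided by 1.51. The part of this in the drop to 138 was not tested. For Hbb-bh1 and Hba-x the call was lost in some fits without 1 library.

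Replicate numbers are shared by the groups but no label says what they pair. Deviations of same-numbered ES–FLB and E10.5 FLB libraries correlated at −0.036 to 0.043, and those of other pairs at −0.0605 to 0.0342. The comparison was left unpaired, although such low values cannot show that nothing else is shared. With the replicate number as a block, 6957 genes were called between ES–FLB and E10.5 FLB and 1007 for the difference between the comparisons. The block gave ES and bud libraries of a number the same effect. Pairing only within the ES groups or only within the buds was therefore not modelled. Under the block 6 named genes were no longer called, with limma adjusted p of 0.00266 for Egr1, 0.00174 for Hbb-bh1, 0.00849 for Pdgfra, 0.00638 for Tnc, 0.0112 for Lum and 0.00774 for Meg3, and Hbb-bh1 also lost the call of the difference between the comparisons (0.00135). Between ES–FLB and E10.5 FLB not every library correlated best with its own number. Between ES–FLB and ES–HLB (0.053 to 0.068) and between the E10.5 forelimb and hindlimb buds (0.055 to 0.067) every library did, a hint from the data and not from the design. The count tests planned in edgeR and DESeq2 were not run, because the values are CPM and whole reads could not be recovered for all of them.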

Other observations

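Genes of metabolism were set out by the same lists. Cholesterol synthesis genes rose in 18 of 25 and fell in 1 (median 0.38), with a sum of 3414 to 3639 CPM in ES–FLB and 2720 to 2794 CPM in E10.5 FLB. Lss, lanosterol synthase, rose from 51.6 ± 3.66 to 106 ± 4.95 CPM and Hmgcs1, which starts the pathway, from 390 ± 7.9 to 552 ± 13.1 CPM, and Sc4mol (chromosome 8) from 89.1 ± 2.55 to 215 ± 3.93 CPM. Glycolysis genes fell in 5 of 18, rose in 1 and were not called in 12 (median −0.48), close to the 26.4% of all genes tested that fell. The number that fell turned on single libraries: it was 12 without ES–FLB replicate 1, and 2 without ES–FLB replicate 3 or any 1 bud library. Gapdh fell from 592 ± 20 to 302 ± 3.94 CPM, and early FLB held 1066 ± 30 CPM. Hypoxia response genes rose in 5 of 14 tested (26.0% of all genes tested rose) and fell in 1 (median 0.42). Among these, P4ha2, a collagen hydroxylase, rose from 18.7 ± 1.51 to 57.3 ± 5.92 CPM, and Vegfa was at 175, 110 and 139 CPM in ES–FLB against 58.7, 64.9 and 64.9 CPM without being called (limma adjusted p = 0.00491), though it was without ES–FLB replicate 1 or 2 (limma adjusted p = 9.90e-10 and 9.01e-11). ES–FLB replicate 2 was the lowest ES–FLB library for Vegfa, as it was for Egr1 and Jun.

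Hprt, the purine salvage enzyme often used to normalise expression, was chosen after its values were seen. It read 1.96, 1.05 and 1.6 CPM in ES–FLB and 41.3, 42.8 and 41.3 CPM in E10.5 FLB, with a log2 difference of −4.40 ± 0.16 SE. The ES–FLB cells came from the EB5 ES cell line and the buds from Slc:ICR embryos. The part of the cell line's genotype in this difference was not tested.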
